A study of Homo sapiens with 6 samples.

Results

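The CCN genes encode secreted matricellular proteins, which sit in the extracellular matrix and signal to cells without building the matrix itself. The 5 genes described here were taken from the deposited count table by their symbols, CTGF, CYR61, NOV, WISP1 and WISP2, 5 of 58735 genes in all. Their current names are CCN2, CCN1, CCN3, CCN4 and CCN5. The data are RNA sequencing libraries, 6 in number, from LX-2 cells (labelled genotype WT), a line derived from human hepatic stellate cells, the matrix-producing cells of the injured liver. Every library came from cells transfected with a small interfering RNA (siRNA) labelled NSUN2, the gene of an RNA cytosine methyltransferase; the series' design text names NAT10 in the same place. In 3 libraries the cells had the siRNA alone ("untreated" below), and in the other 3 recombinant human TGF-β1 was added at 5 ng/ml, 48 hours after transfection, and RNA was taken 24 hours later. The comparison asks how TGF-β1, the main fibrogenic cytokine of the liver, changes these genes in cells that all carry the siRNA. Cells without the siRNA were not analysed here.

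CCN proteins are built from a row of cysteine-rich modules that resemble insulin-like growth factor binding proteins, von Willebrand factor type C repeats, thrombospondin repeats and a cystine knot. They bind integrins, proteoglycans and growth factors and modulate adhesion, migration and matrix deposition. CTGF is a classical TGF-β target and a marker of liver fibrosis, CYR61 is an immediate-early gene induced by serum and mechanical tension, and NOV is often described as acting against CTGF. WISP1 and WISP2 were found as WNT1-inducible genes, and WISP2 lacks the cystine knot.

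Total counts ran from 25828504 to 30034762 per library. The labels call the replicates biological and do not say whether they came from separate cultures, so p-values rest on the spread between these libraries. The edgeR test estimates this spread partly from other genes, so its p-values do not measure a gene's own spread alone. NSUN2 itself was measured at 81.4 to 84.4 CPM (read counts scaled to a common library size) in untreated and 97.0 to 102.7 CPM in TGF-β1 libraries, and its knockdown cannot be computed from these libraries. Of 18 stellate cell markers 14 passed the count filter, of which 6 rose and 7 fell, with a median log2 fold change of -0.43. Over all 17215 genes that passed, 20.2% rose and 18.7% fell at an adjusted p under 0.05, with a median of -0.01. COL1A1, COL1A2 (only 1.30 to 3.18 CPM), COL3A1, LOX, PDGFRB and VIM rose, and ACTA2 (7.15 to 4.29 CPM), RELN, GATA4, HAND2, NGFR, GFAP and THY1 fell. The summed level was 2741 to 2777 CPM in untreated and 5275 to 5935 CPM in TGF-β1 libraries, and COL1A1, at means of 1418 and 3993 CPM, made up most of the difference. DCN and LRAT had no counts, and DES and LUM group means were below 0.1 CPM. Markers of other liver cells differed in level. ALB, KRT19, EPCAM, CDH5 and PTPRC had group means of 0.165 CPM or less, and others were well above this. The summed marker level in untreated and TGF-β1 libraries was 23.6 to 27.4 and 21.3 to 23.3 CPM for 9 hepatocyte genes, 71.0 to 72.7 and 56.8 to 58.5 CPM for 5 cholangiocyte genes, 19.8 to 25.6 and 35.9 to 40.1 CPM for 7 endothelial genes, and 11.4 to 14.7 and 14.7 to 17.9 CPM for 8 macrophage genes. SERPINA1 (24.8 and 22.1 CPM), SOX9 (69.0 and 53.0), TEK (20.3 and 36.4), and CD14 (8.49 and 3.71) with CSF1R (4.34 and 12.3) made up most of these sums (untreated and TGF-β1 means). Their part in the CCN results was not tested. In bulk RNA of this kind a change in the number of expressing cells and a change in RNA per cell cannot be told apart.

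CTGF and CYR61 were abundant in all 6 libraries and rose with TGF-β1, NOV was expressed at a low level and fell, and WISP1 and WISP2 were close to the limit of detection. CTGF rose 5.14-fold, CYR61 1.32-fold, and NOV fell 2.08-fold. Of the 5 genes 3 passed edgeR's filter on low counts. Of these 2 rose and 1 fell, at an adjusted p under 0.05 in edgeR's quasi-likelihood test, and over all 17215 tested genes 20.2% rose and 18.7% fell by the same rule. The groups did not overlap for any of the 3, and over all tested genes they did not overlap for 24.1% (higher) and 23.3% (lower).

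**Figure D1:**
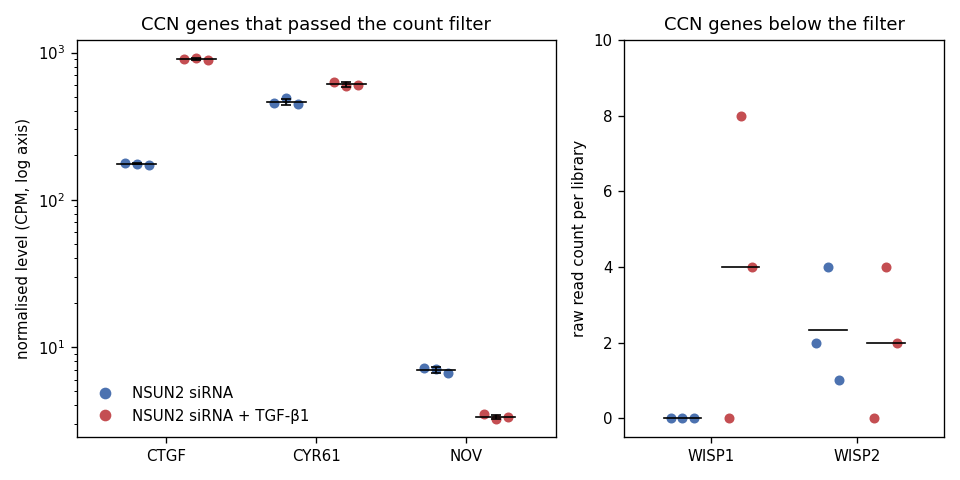
Levels of the 5 CCN genes in each library. Left, normalised CPM on a log axis for CTGF, CYR61 and NOV, with 1 point per library, the mean (line) and the SD (bars); right, raw read counts for WISP1 and WISP2 with the mean; blue is untreated and red is TGF-β1, 3 libraries each. CTGF goes from about 176 to 903 CPM, NOV goes down, and WISP1 and WISP2 reach at most 8 reads.

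CTGF (ENSG00000118523, chromosome 6, 131948176 to 131951373, minus strand, hg38) encodes connective tissue growth factor, which binds TGF-β and integrins and promotes matrix production. Its level was 177.9, 175.9 and 173.4 CPM in the untreated libraries and 902.3, 914.4 and 891.6 CPM in the TGF-β1 libraries. The TGF-β1 libraries lay far above the untreated ones, and the spread within each group was small, with a coefficient of variation of 1.29% and 1.26%. The group means were 175.7 ± 2.27 and 902.8 ± 11.4 CPM (SD, n = 3), and the log2 fold change was 2.36 ± 0.03 (SE; adjusted p = 9.19e-42, edgeR quasi-likelihood test with Benjamini-Hochberg). Only 129 of the 17215 tested genes, CTGF included, had a log2 fold change as high or higher. In counts, CTGF had 4857 to 5562 reads in untreated and 22320 to 26207 in TGF-β1 libraries. An antisense gene on the plus strand, AL133346.1, shares 195 of the 2339 exonic bases of CTGF (8.34%) in GENCODE release 29 and had 3 reads over all 6 libraries. The sources used here do not give whether the counting used strand.

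The region just before the CTGF start is shown because CTGF was the only member with a RefSeq promoter sequence at hand. The other members were not searched, so the matches do not set CTGF apart from them. This region holds letters that match the DNA motif of TEAD factors, the partners of the Hippo pathway coactivators YAP and TAZ. It also holds a match to the motif of SMAD factors, the transcription factors of TGF-β signalling. It comprises the 250 bases before the RefSeq start (chr6:131951373-131951622, minus strand, GRCh38.p14, from RefSeq), with TEAD and SMAD matches in capitals:

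CTGF: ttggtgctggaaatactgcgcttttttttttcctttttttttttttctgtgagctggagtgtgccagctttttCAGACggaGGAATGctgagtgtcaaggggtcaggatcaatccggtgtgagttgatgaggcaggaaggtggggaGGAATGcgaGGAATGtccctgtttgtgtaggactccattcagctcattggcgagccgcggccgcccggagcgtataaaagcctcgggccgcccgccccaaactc

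The TEAD motif was searched as GGAATG and the SMAD half-site as CAGAC, on both strands, and the matches do not overlap. Counted from the start, TEAD matches begin at -169, -104 and -95 and the SMAD half-site match begins at -177. A TATA box match (TATAAA) begins at -32. No CArG box, the motif of serum response factor, was found in this window; 1.16% of windows hold one. Among 35116 RefSeq windows of the same length, 11.9% hold at least 1 TEAD match, 38.0% at least 1 SMAD half-site and 10.7% at least 1 TATA box match. These shares, that of the TATA box included, count matches on either strand and at any position in the window. At least 3 TEAD matches were found in 29 windows (0.0826%), and 9 windows (0.0256%) had at least 3 together with a SMAD half-site. The matches are a description of the letters and not evidence of binding.

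**Figure D2:**
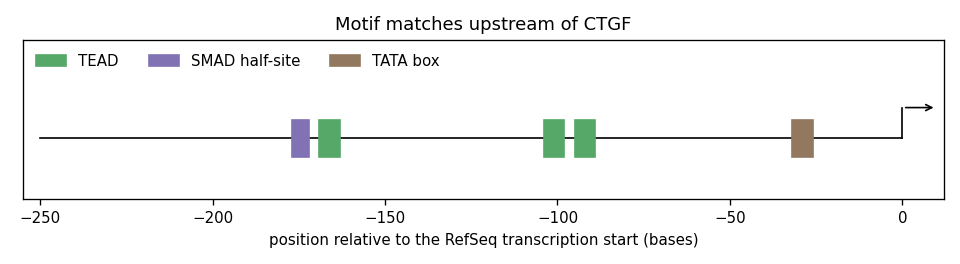
Motif matches in the 250 bases before the CTGF start, drawn to scale along the distance from the RefSeq start in bases. Green boxes are 3 TEAD matches, the purple box 1 SMAD half-site match and the brown box 1 TATA box match; the arrow marks the start and the direction of transcription.

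Of 11639 tested genes with a window in the RefSeq table, 23.1% rose and 21.0% fell. The shares were 23.0% and 20.9% among 10552 genes with 0 TEAD matches, 24.6% and 21.5% among 1005 genes with 1, and 22.7% and 18.7% among 75 genes with 2. Of 7 genes with 3 or more, CTGF, EVI5 (log2 fold change 0.36) and SYDE1 (0.37) rose, C1R (-0.71) and EVI5L (-0.17) fell, and C1orf116 and MAMDC2 were not called; these genes were named after their values were seen, and EVI5L was not called in 8 of 17 alternatives, among them those without replicate 1 or 2 of either group. The log2 fold changes of EVI5 and SYDE1 were well below that of CTGF.

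CYR61 (ENSG00000142871, chromosome 1, 85580761 to 85583962, plus strand, hg38) encodes a ligand of integrins and heparan sulfate that acts in adhesion, angiogenesis and senescence of fibroblastic cells. Its level was 455.7, 487.2 and 444.5 CPM in the untreated libraries and 634.4, 591.7 and 600.5 CPM in the TGF-β1 libraries. Every TGF-β1 library lay above every untreated one, by much less than for CTGF. The means were 462.5 ± 22.1 and 608.9 ± 22.5 CPM (SD, n = 3), and the log2 fold change was 0.40 ± 0.03 (SE; edgeR quasi-likelihood test, adjusted p = 5.85e-13). A change as high or higher was seen in 2180 of the tested genes, against 129 for CTGF. Untreated cells already held much CYR61: its deposited FPKM, a level per kilobase of gene length, ranked at percentiles 99.3 to 99.4 among tested genes without TGF-β1 and 99.5 to 99.6 with it. CTGF ranked at percentiles 97.4 to 97.5 and 99.7 to 99.8.

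Per gene length, the order of these 2 genes turned over. CYR61 was the most abundant CCN gene in every untreated library and CTGF in every TGF-β1 library. The deposited FPKM of CTGF was 74.0, 72.8 and 71.9 in untreated and 375.0, 379.8 and 371.6 in TGF-β1 libraries. That of CYR61 was 180.7, 192.2 and 175.5, and then 251.2, 234.2 and 238.5. The ratio of CTGF to CYR61 FPKM within a library was 0.410, 0.379 and 0.409 without TGF-β1 and 1.49, 1.62 and 1.56 with it. The log2 ratio differed by 1.96 between the groups, a 3.90-fold shift, with all 3 TGF-β1 libraries above all 3 untreated ones. The two-sided exact permutation test gave p = 0.1, the smallest value that 3 against 3 libraries allow. A ratio within a library does not depend on library scaling.

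**Figure D3:**
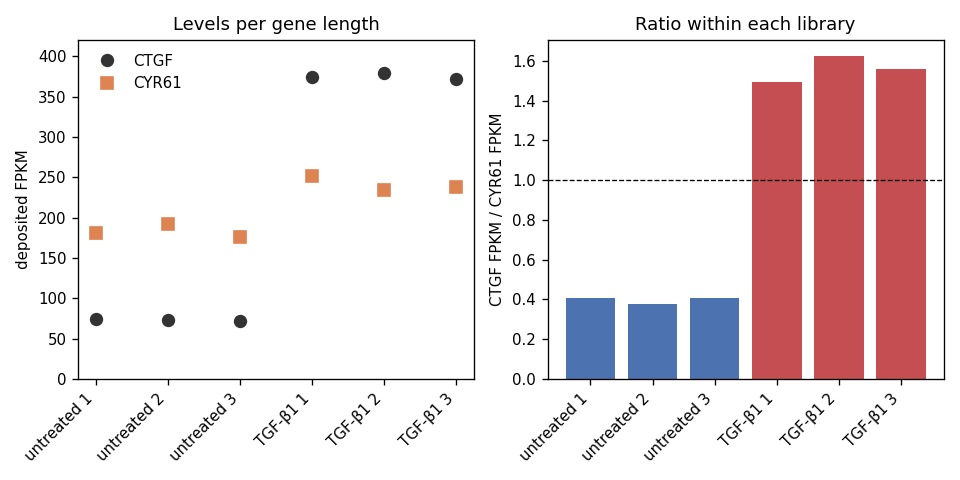
Left, deposited FPKM of CTGF (circles) and CYR61 (squares) in each of the 6 libraries; right, the ratio of the CTGF to the CYR61 FPKM in the same libraries, with a dashed line at equal levels. The ratio is 0.379 to 0.410 in the 3 untreated libraries (blue) and 1.49 to 1.62 in the 3 TGF-β1 libraries (red).

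Summed over the 5 genes, family FPKM went from 258.2 ± 8.97 to 618.0 ± 8.44 (SD, n = 3). CTGF made up 28.2% ± 0.90 of this sum in untreated and 60.8% ± 0.99 in TGF-β1 libraries, and CYR61 70.8% ± 0.91 and 39.0% ± 0.99. NOV held 0.977% and 0.197% on average. CTGF and CYR61 thus made up nearly all of the CCN message under both conditions. WISP3 (CCN6), a relative outside the 5 genes, had 11 reads over the untreated and 5 over the TGF-β1 libraries.

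NOV (ENSG00000136999, chromosome 8, 119416306 to 119424353, plus strand, hg38) encodes a CCN protein that binds integrins and Notch. Its level was 7.16, 7.09 and 6.60 CPM in the untreated libraries and 3.48, 3.24 and 3.32 CPM in the TGF-β1 libraries. All TGF-β1 libraries lay below all untreated ones. The means were 6.95 ± 0.30 and 3.35 ± 0.12 CPM (SD, n = 3), and the log2 fold change was -1.05 ± 0.16 (SE; edgeR quasi-likelihood test, adjusted p = 1.01e-06), and 653 tested genes had as low a value or lower. On the log2(FPKM + 1) scale, which compresses low genes, the change of NOV was -0.67. The measurement rests on 185 to 224 reads per untreated and 86 to 93 reads per TGF-β1 library. Its FPKM was 2.39 to 2.61 and 1.18 to 1.26, so the CTGF to NOV ratio in FPKM ran from 28.4 to 30.003 in untreated and from 296.6 to 322.0 in TGF-β1 libraries.

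WISP1 (ENSG00000104415, chromosome 8, 133191039 to 133231690, plus strand, hg38) and WISP2 (ENSG00000064205, chromosome 20, 44714844 to 44728509, plus strand, hg38) did not pass the count filter. WISP1, which promotes proliferation of fibroblastic cells, had 0, 0 and 0 reads in the untreated libraries and 0, 8 and 4 in the TGF-β1 libraries. A count of 0 over the untreated group allows up to 3 reads, or 0.0334 CPM, against which the 12 reads of the TGF-β1 group were at least 4.53-fold higher over the group. This bound covers only the counting error of the 0, takes the 12 reads as exact, and 1 of the TGF-β1 libraries had none. Without TGF-β1 replicate 2, which held 8 of the reads, the bound was 2.36-fold, and it was 2.95-fold to 3.11-fold without any 1 of the untreated libraries, with fewer reads behind the limit. With no count filter, edgeR's quasi-likelihood test gave WISP1 an unadjusted p of 0.0171 and an adjusted p of 0.0828, and it was not called. WISP2 had 2, 4 and 1 reads in the untreated and 0, 4 and 2 in the TGF-β1 libraries, and the groups overlapped. The ratio of its summed levels was 0.970, and counting error alone leaves it between 0.269 and 3.37 (exact 95% interval), so a change in WISP2 of up to about that size was not detectable at this depth. Its adjusted p with no filter was 0.983 in edgeR's quasi-likelihood test.

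The genes most like each CCN gene were sought among the 10669 tested genes whose mean level reached 5 CPM, leaving out clone-named, open reading frame, antisense, LINC and mitochondrial genes. Likeness was the root mean square difference over the 6 libraries of log2 CPM centred on each gene's mean. The genes nearest to CTGF were NEDD9, a focal adhesion scaffold gene (difference 0.039), ADAM19, a membrane metalloproteinase gene (0.046), and INHBA, the activin A subunit gene (0.047). NEDD9 went from 20.7 ± 0.415 to 107.0 ± 3.44 CPM, ADAM19 from 107.2 ± 1.54 to 541.5 ± 18.7 CPM and INHBA from 76.0 ± 3.58 to 395.7 ± 3.95 CPM (SD, n = 3). For CYR61 they were LIMK1, the kinase of cofilin (0.015), PPRC1, a transcriptional coactivator gene (0.022), and MRTO4, a ribosome assembly factor gene (0.022), with log2 fold changes of 0.40, 0.38 and 0.37. For NOV they were the guidance ligand SLIT2 (0.046), the thioredoxin reductase TXNRD1 (0.047) and the flavoprotein gene FOXRED2 (0.050), with log2 fold changes of -1.02, -1.05 and -1.06. With 2 groups, the measure mostly reflects an equal size of change.

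**Figure D4:**
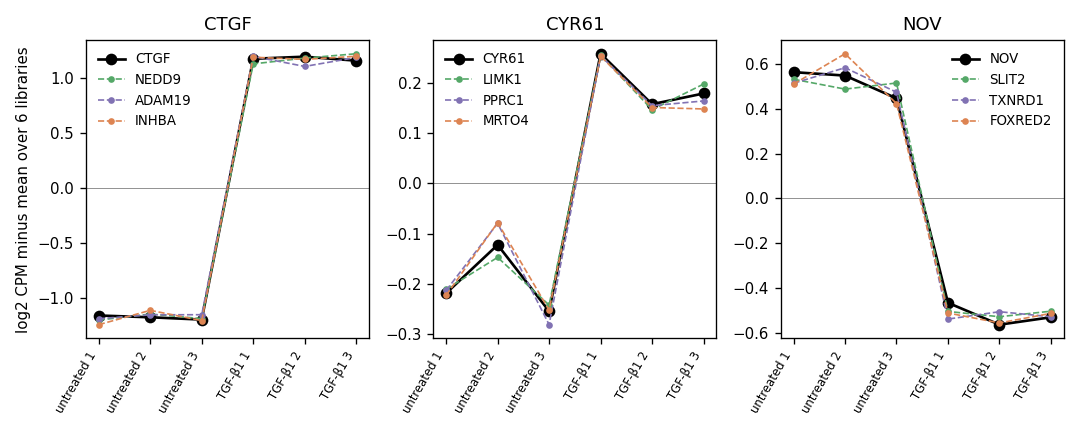
Log2 CPM minus each gene's mean over the 6 libraries, for CTGF, CYR61 and NOV (black) and the 3 tested genes nearest to each (colours); the vertical scales differ between the panels, and lines only join the points of a gene. NEDD9, ADAM19 and INHBA overlie CTGF, LIMK1, PPRC1 and MRTO4 follow CYR61, and SLIT2, TXNRD1 and FOXRED2 follow NOV.

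The tested genes nearest on the chromosome did not rise beside CTGF or CYR61 at the threshold used. Next to CTGF, ENPP1, a pyrophosphatase gene 53.0 kb away, and MOXD1, 344.7 kb away, fell by 0.29 ± 0.06 and 0.76 ± 0.05 on the log2 scale (SE). DDAH1, the gene of an enzyme that breaks down asymmetric dimethylarginine, lies 2.40 kb from CYR61 on the opposite strand and went from 72.5 ± 1.77 to 54.0 ± 1.77 CPM (SD, n = 3), and its log2 fold change was -0.42 ± 0.05 (SE; edgeR quasi-likelihood test, adjusted p = 4.05e-09). ZNHIT6, 65.5 kb on the other side, had a log2 fold change of 0.14 ± 0.07 (adjusted p = 0.145, edgeR quasi-likelihood test). Next to NOV, the autotaxin gene ENPP2, 132.7 kb away, fell by 1.09 ± 0.09, and the osteoprotegerin gene TNFRSF11B, 464.1 kb away, rose by 2.21 ± 0.13.

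Receptors and co-receptors of CCN proteins moved both ways, with integrin chains in both directions. Of 19 listed genes 18 were tested, 8 rose and 5 fell, against 38.9% of all tested genes called in either direction, and the list's median log2 fold change was 0.03 beside -0.01 over all tested genes. ITGAV, the alpha chain of some of the integrins that bind CTGF and CYR61, went from 112.3, 104.4 and 106.0 to 295.3, 276.4 and 280.8 CPM, with no overlap. ITGA5, the fibronectin receptor chain, rose by 1.04, ITGB3, a partner of ITGAV, by 0.78 and the common beta chain ITGB1 by 0.64. The 5 genes that fell were ITGB2 (-0.91), ITGA2B (-0.79), ITGA6 (-0.26), the endocytic receptor LRP1 (-0.24) and FGFR1 (-0.15), all but ITGA6 named after their values were seen. The groups overlapped for ITGA2B, and it was not called in any of the 3 FPKM fits (-0.66 to -0.30). ITGB2 was not called with log2(FPKM + 1) and no filter (-0.21). SDC4, the syndecan co-receptor, had a log2 fold change of -0.07 ± 0.04 and was 1 of the 5 tested genes of this list that were not called. SDC4 was named after its values were seen. Upper-quartile factors and scaling by library totals alone each gave 8 lower in place of 5.

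Genes that act on CCN transcription also divided. Of 24 listed genes 23 were tested, 14 rose and 4 fell, with a median of 0.12, where over all tested genes 20.2% rose and 18.7% fell. Those that fell were WWTR1, which encodes the coactivator TAZ (-0.54), SMAD3 (-0.43), TEAD4 (-0.35) and YAP1 (-0.28); all but WWTR1 were named after their values were seen. WWTR1 went from 37.0, 34.95 and 35.8 to 25.0, 24.3 and 25.0 CPM, and the groups did not overlap. MRTFA, a coactivator of serum response factor, rose by 1.01 ± 0.05, and SRF, which encodes that factor, by 0.71 ± 0.06 (SE). MRTFB, the paralogue of MRTFA, had overlapping groups and was not called (log2 fold change -0.02 ± 0.06); it was named after its values were seen. VGLL3, a TEAD cofactor gene, rose by 1.55 ± 0.04 and the inhibitory SMAD7 by 2.40 ± 0.07. With library totals alone the count that rose was 8 in place of 14, and TEAD1, LATS1, SMAD2, RHOA, ROCK1 and ROCK2, all with log2 fold changes below 0.2, were no longer called. Over all 17 alternatives TEAD1, SMAD2 and ROCK2 each lost the call in 7 and RHOA in 5. Leaving out untreated replicate 1 ended all of the first 3 calls, TGF-β1 replicate 1 ended those of TEAD1 and ROCK2, TGF-β1 replicate 2 that of SMAD2, and untreated replicate 3 that of ROCK2.

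Matrix proteins and growth factors that bind CCN proteins were tested in 10 of 16 cases. Of these 5 rose and 1 fell, with a median of 0.50, where over all tested genes 20.2% rose and 18.7% fell. FN1, which encodes fibronectin, went from 1355, 1374 and 1349 to 9741, 9110 and 8943 CPM. TGFB1 rose by 1.59 ± 0.04, the vascular growth factor VEGFA by 1.36 ± 0.04 and the fibroblast growth factor FGF2 by 0.88 ± 0.04 (SE); SLIT3, named after its values were seen, was measured at 1.18 and 3.09 CPM and rose by 1.38, or by 0.16 on the log2(FPKM + 1) scale. The gene that fell, BMP4 (-0.75 ± 0.30), was measured at 2.06 and 1.22 CPM; it was named after its values were seen, and 11 of 17 alternatives did not call it, among them those without untreated replicate 1 or 3 and without TGF-β1 replicate 1 or 2. DCN, the gene of decorin, and IGF1 had no counts in any library.

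Proteases reported to cut CCN proteins were tested in 11 of 15 cases, of which 6 rose and 2 fell, with a median of 0.54. The shares over all tested genes were 20.2% higher and 18.7% lower. The interstitial collagenase MMP1 went from 298.0, 301.6 and 309.1 to 19.7, 23.3 and 22.6 CPM. The stromelysin MMP3, named after its values were seen, fell by 2.30 ± 0.30 from a low level, or by 0.94 on the log2(FPKM + 1) scale. In the other direction the gelatinase MMP2 went from 24.6, 25.8 and 22.5 to 214.8, 206.9 and 211.5 CPM, and BMP1 and MMP9 rose by 0.99 ± 0.04 and 0.77 ± 0.06 (SE). MMP1 and MMP2 thus changed in opposite directions, each with no overlap between the groups. Protease activity was not measured.

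Among 14 listed genes outside the family that share its N-terminal IGFBP module, 11 were tested. Of these 5 rose and 5 fell, with a median of -0.09, where over all tested genes 20.2% rose and 18.7% fell. HTRA1, a secreted serine protease gene, rose by 1.27 ± 0.10, IGFBP5 by 1.22 ± 0.05 and IGFBP7 by 0.87 ± 0.13, and HTRA3 and CRIM1 by 0.48 and 0.31. IGFBP3 fell by 1.02 ± 0.08, IGFBP6 by 0.61 and ESM1 by 0.46; IGFBP1 fell from 0.89 to 0.06 CPM, and IGFBP4 had a log2 fold change of -0.09. On the log2(FPKM + 1) scale with no filter IGFBP1 changed by -0.54 and HTRA3 was not called, and IGFBP4 lost its call in 4 of 17 alternatives, among them those without untreated replicate 3 and without TGF-β1 replicate 2 or 3. HTRA3, CRIM1, IGFBP6, ESM1, IGFBP1 and IGFBP4 were named after their values were seen.

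**Figure D5:**
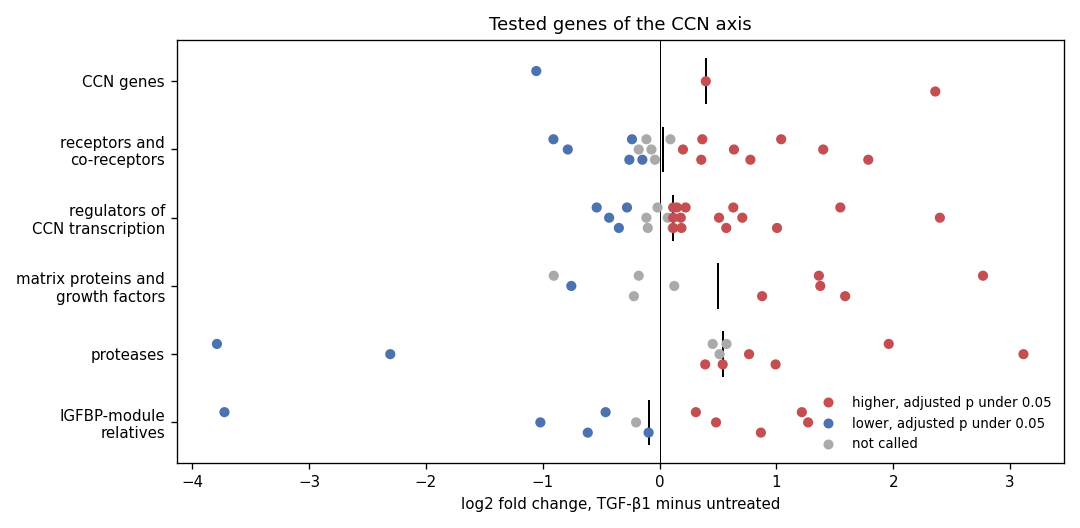
Log2 fold change, TGF-β1 minus untreated, of each tested gene in the CCN family and in 5 lists around it; the vertical bars are list medians, red points are higher and blue points lower at an adjusted p under 0.05 (edgeR quasi-likelihood test), and grey points were not called. CTGF lies at 2.36 and NOV at -1.05, and every list has points on both sides of 0.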

How the data were processed

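The authors deposited raw read counts (whole numbers) for each gene, and a second table in FPKM, in which counts are divided by gene length and a library size. The tools fastp and HISAT2 2.2.1 and the build hg38 are named in the submitters' processing notes; the sources used here do not give the counter, its strand setting or the annotation. FPKM equalled counts over length and 1 library size per library, so it is no independent measurement. Each of these tables also holds 6 per-sample columns that fit no label of these samples, and these were left out. All 58735 gene identifiers and positions matched GENCODE release 29.

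Counts were filtered with edgeR's filterByExpr (minimum count 10, minimum total 15) and tested with edgeR 4.0.16 in R 4.3.3 (TMM factors, robust glmQLFit, glmQLFTest, two-sided, group as the only term, 4 residual degrees of freedom, Benjamini-Hochberg adjustment over 17215 genes, threshold 0.05). The SE of a fold change was its absolute log2 value divided by the square root of F. Library sizes for CPM were scaled by TMM. The test was checked on simulated counts. Differences between replicates exceeded sampling noise (chi-square over its degrees of freedom 3.52 to 4.58), so none was counted as a repeat deposit.

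The members and lists were chosen with earlier results of these data known. Named were all 5 members; up to 4 called genes of each list with the largest change at 5 CPM or more, and the largest in the minority direction; the 3 genes most like each tested member; and the nearest tested gene on each side. IGF2 stands on 2 identifiers, and the one with counts was used. Of the members, only CTGF had a window in the RefSeq promoter table, and the others were not searched for motifs. Alternatives were other size factors, other filters, DESeq2 1.42.0, limma 3.58.1 (voom, and log2 FPKM plus a pseudocount), a replicate block and each library left out.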

Additional observations from a re-analysis of the deposited data

How the results depend on the processing

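CTGF, CYR61 and NOV kept their direction and their call in all 17 alternatives. Their log2 fold changes ran from 2.24 to 2.37, from 0.28 to 0.43 and from -1.17 to -0.67. The difference in the log2 ratio of CTGF to CYR61 ran from 1.93 to 1.99 when each library was left out in turn. Of 74 other named genes, 61 kept direction and call in each alternative that gave a value (14 for IGFBP1, 15 for SLIT3 and ITGB2, 17 for the others); ITGB2 was not among the 61.

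With scaling by library totals alone, the median over all tested genes was -0.13 (log2). There were then 2019 calls upward and 5354 downward (27.4% of calls upward, against 51.8%), and 8 CCN regulators were higher. The regulators TEAD1 and ROCK2 then had values of -0.0018 and -0.0019, opposite in sign and not called. Upper-quartile factors gave 42.0% of calls upward. Upper-quartile factors and library totals alone each gave 8 lower receptors, and each of the 3 FPKM fits gave 3. FPKM with no filter gave 1978 lower genes. The 1 lower gene among CCN-binding proteins became 0 with no filter, with DESeq2, with limma-voom, with the replicate block and in the 3 FPKM fits, and ran from 0 to 1 when libraries were left out; BMP4 itself was not called in 11 of the alternatives. WISP1 and WISP2, at 12 reads or fewer per group, were limited by depth.

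Over all tested genes, deviations of same-numbered libraries correlated at -0.0091 to 0.011, and those of differently numbered libraries at -0.022 to 0.026. Counting noise in genes with few reads draws such correlations towards 0. They therefore cannot show whether same-numbered libraries shared a culture or batch. With the replicate block 3431 genes rose and 3182 fell, the members' calls did not change, and the log2 ratio of CTGF to CYR61 differed by 1.96 (exact sign-flip permutation p = 0.25, the smallest possible with 3 pairs).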
